A study of Homo sapiens with 4 samples.

Results

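The mitochondrial genome encodes 13 proteins, and nuclear genes encode the factors that copy it, transcribe it and process and stabilise its RNAs. The data on these genes came from RNA-seq of 4 libraries made from 2 human leukemia cell lines, K562 and THP-1. K562 is an established line from chronic myeloid leukemia with erythroid features, and THP-1 is an established line from acute monocytic leukemia. Each line was treated for 72 h with 100 nM periplocin, a plant cardiac glycoside, or with DMSO, its solvent, and each of the 4 conditions was 1 library of oligo(dT)-selected RNA from a single biological replicate. The titles of the control samples call them blank and their library names give DMSO. No transgene, knockdown or other agent is named for these libraries. The comparison addressed was which transcripts differed after periplocin in each line.

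The 37 genes described here were the 13 mitochondrially encoded protein genes and 24 nuclear factors, taken by gene symbol from a table of 20348 genes. They were chosen by function and with their measured CPM values in the same 4 libraries, periplocin against DMSO, already known, so every treated to control ratio below is a description and not a test. All 37 were matched and all 37 passed the minimum of a mean of 1 CPM (read counts relative to library size, scaled between libraries by TMM) in both lines. Because each condition had 1 library, no test was made, and each log2 ratio is given with a 95% interval that covers counting error only. A difference between 2 libraries that lies outside such an interval may still be no larger than the spread between cultures, which was not measured.

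Library totals ranged from 16381149 to 20622694 counts, with 14821 to 15327 genes counted at least once. The line labels were checked with 6 marker genes each. The erythroid regulator GATA1 had 2715 and 4959 counts in the K562 libraries and 3 and 2 in the THP-1 libraries, and the leukocyte integrin ITGB2 had 9 and 12 in the K562 pair and 9118 and 14569 in the THP-1 pair. Of the THP-1 markers, the granule enzyme gene MPO had only 43 and 14 counts in THP-1 and 0 in both K562 libraries. Within K562, 4 of the 6 erythroid markers were at least 2-fold higher after periplocin, with a median log2 ratio of 1.78. The summed level of the 6 was 1735 CPM in control and 6888 CPM in treated K562 cells, and 9.31 and 3.67 CPM in the THP-1 pair, with HBG2 at 0 in treated THP-1. The 6 THP-1 markers summed to 1076 and 1463 CPM in control and treated THP-1 cells and to 85.9 and 79.6 CPM in K562 cells. In treated THP-1, 4 of these 6 (CD33, LYZ, MPO and CSF1R) were lower than in the control. The median log2 ratio of the 6 was -0.25. ITGB2 went from 462 to 861 CPM and SPI1 from 187 to 259 CPM. The part of these marker shifts in the mitochondrial values was not tested.

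In human cells, both strands of the circular mitochondrial DNA are transcribed by POLRMT, a single-subunit RNA polymerase that needs TFAM and TFB2M to start at the promoters. The long primary transcripts are cut at the tRNAs that punctuate them, the mRNAs receive short poly(A) tails, and the LRPPRC-SLIRP complex protects them from decay. All 13 proteins are subunits of respiratory complexes I, III and IV or of the ATP synthase, complex V. MT-ND6 is the only protein gene on the strand opposite to the other 12, and its mRNA is known to lack a long poly(A) tail.

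Neighbouring genes on this genome can share bases, which bears on how their reads can be told apart. Coordinates and mitochondrial sequences are those of the GENCODE 29 annotation and transcripts on GRCh38, written 5′ to 3′ along each gene. The stretch shared by MT-ATP8 and MT-ATP6, whose proteins are both ATP synthase subunits, spans 46 bases at chrM:8527-8572 and makes up 22.2% of MT-ATP8:
MT-ATP8 and MT-ATP6 shared bases: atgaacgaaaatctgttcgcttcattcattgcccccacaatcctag
The 7 bases shared by MT-ND4L and MT-ND4, both complex I subunits, lie at chrM:10760-10766 and are in capitals at the end of this stretch, which starts at position 10737:
MT-ND4L end and MT-ND4 start: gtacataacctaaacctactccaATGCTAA
MT-ATP6 and MT-CO3 share 1 base. The counting program is not named in the sources used here, so how reads in these stretches were assigned is not known.

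The 3′ ends of the mitochondrial mRNAs matter because the libraries were selected on poly(A), and because several of these mRNAs have no complete stop codon until the tail is added. The annotated gene ends of 5 mRNAs are shown, those with the 3 lowest and the 2 highest K562 ratios. The point where the tail is added was not mapped here, so these need not be the tailed ends. Letters of the complete or incomplete stop codon are in capitals:
MT-CO1 (chrM:7416-7445, plus strand): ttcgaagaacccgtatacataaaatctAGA
MT-CO3 (chrM:9961-9990, plus strand): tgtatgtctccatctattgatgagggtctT
MT-CO2 (chrM:8240-8269, plus strand): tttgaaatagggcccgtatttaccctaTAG
MT-ND2 (chrM:5482-5511, plus strand): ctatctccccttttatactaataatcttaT
MT-ND6 (chrM:14149-14178, minus strand): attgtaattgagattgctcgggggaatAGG
An incomplete stop codon was found in 6 of the 13 genes and a complete one in 7. The median K562 log2 ratio was -1.22 for the 6 and -1.29 for the 7, and both sets ran across nearly the whole range, from -2.0 to -0.21 and from -2.16 to -0.49. In THP-1 the medians were -0.24 and -0.42. In K562 the ratios of the 6 and the 7 thus overlapped. In THP-1 the only ratios above 0, of MT-ND2 (0.23) and MT-ND3 (0.01), belonged to genes with an incomplete stop codon. A link between stop codon and ratio was not tested. With oligo(dT) selection, fewer molecules of an mRNA and shorter tails on the same number of molecules cannot be told apart.

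In the DMSO libraries the 13 mRNAs together made up 5.62% of all counts in K562 (exact 95% interval 5.61 to 5.63) and 5.24% in THP-1 (5.23 to 5.25). After periplocin they made up 2.07% in K562 (2.06 to 2.08) and 3.93% in THP-1 (3.92 to 3.93). The summed level was thus 2.74-fold lower in the treated K562 library, a log2 ratio of -1.45 (interval -1.458 to -1.446), and 1.32-fold lower in the treated THP-1 library, a log2 ratio of -0.41 (-0.410 to -0.401). The K562 log2 ratio was lower than that of THP-1 by a difference of -1.05 (-1.054 to -1.040). In these bulk libraries, fewer cells of one kind and less RNA per cell cannot be told apart.

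Of the 13 mRNAs, 9 were at least 2-fold lower after periplocin in K562 and 0 were at least 2-fold higher. Of all 11862 genes that passed the CPM minimum in K562, 11.6% were at least 2-fold lower and 8.84% at least 2-fold higher. Since the members were chosen with this contrast known, nothing is read from the gap between these shares. The median log2 ratio of the 13 was -1.29 in K562, against -0.01 over all genes. In THP-1, 0 of the 13 were past 2-fold in either direction, where 10.5% of 12341 genes were 2-fold lower and 8.03% 2-fold higher, and their median was -0.27 against -0.02 over all genes.

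**Figure D1:**
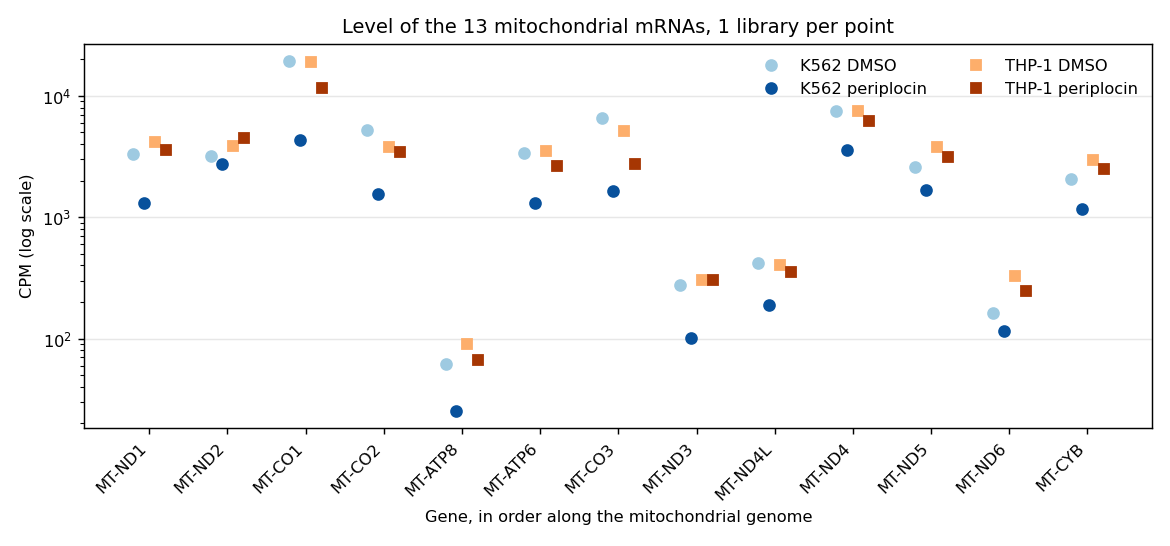
Level of each mitochondrial mRNA in CPM on a log axis, with genes in their order along the genome and 1 point per library (circles for K562, squares for THP-1, dark for periplocin, light for DMSO). The treated K562 point is the lowest of the 4 for all 13 genes, and MT-CO1 drops from 19170 to 4294 CPM there.

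In K562, the mRNAs of complex IV, cytochrome c oxidase, had the lowest ratios. In THP-1 this held for MT-CO3 and MT-CO1 and not for MT-CO2. MT-CO1, which encodes the catalytic subunit of this enzyme (chrM:5904-7445), stood at 19170 CPM in control and 4294 in treated K562 cells, and at 18850 and 11480 CPM in control and treated THP-1 cells. Its level was 4.47-fold lower in the treated K562 library (log2 ratio -2.16, interval -2.17 to -2.15) and its log2 ratio was -0.71 (-0.72 to -0.70) in THP-1. The DMSO libraries were nearly level for this gene and the treated libraries were far apart.

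MT-CO3, a core subunit of the same enzyme (chrM:9207-9990), was at 6518 and 1632 CPM in K562 DMSO and periplocin, and at 5079 and 2730 CPM in the THP-1 pair. Its log2 ratio was -2.0 (-2.02 to -1.98) in K562 and -0.89 (-0.90 to -0.87) in THP-1, the lowest of the 13 in THP-1. MT-CO2, which takes up electrons from cytochrome c (chrM:7586-8269), was at 5252 and 1549 CPM in K562 and at 3790 and 3465 CPM in THP-1. Its log2 ratio of -1.76 (-1.78 to -1.74) in K562 stood beside only -0.12 (-0.14 to -0.11) in THP-1, and the gap of -1.64 was the widest between the lines among the 13. The 3 complex IV mRNAs were therefore close to each other in K562 and spread apart in THP-1. Their sum gave -2.05 (-2.058 to -2.041) in K562 and -0.64 (-0.649 to -0.636) in THP-1.

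Complex V has 2 mitochondrially encoded subunits, both of the proton channel side of the enzyme. MT-ATP6 (chrM:8527-9207) was at 3370 and 1319 CPM in the K562 pair, control first, and at 3534 and 2616 CPM in the THP-1 pair. MT-ATP8 (chrM:8366-8572) was at 61.9, 25.4, 90.1 and 66.9 CPM in the same order. The log2 ratios of the pair were nearly equal in each line, at -1.35 and -1.29 in K562 and at -0.43 and -0.42 in THP-1. Both genes are read from 1 shared mRNA, and the ratio of MT-ATP8 to MT-ATP6 counts was 0.0184 and 0.0192 in the K562 pair and 0.0255 and 0.0256 in the THP-1 pair, with overlapping intervals within each line.

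MT-CYB, the cytochrome b of complex III (chrM:14747-15887), was at 2049 and 1172 CPM in K562 and at 2944 and 2473 in THP-1. Its log2 ratios were -0.81 (-0.83 to -0.78) and -0.24 (-0.26 to -0.23). In K562 it stood just outside the 2-fold line, and MT-ND4, at -1.08, just inside it.

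The 7 complex I mRNAs ran from -1.45 to -0.21 in K562, the widest range of the complexes there, and from -0.42 to 0.23 in THP-1. Their sum gave a log2 ratio of -0.85 (-0.857 to -0.840) in K562 and -0.15 (-0.160 to -0.146) in THP-1. MT-ND3 (chrM:10059-10404) was at 276 CPM in K562 DMSO and 101 in K562 periplocin, and at 301 and 302 in THP-1. Its log2 ratio was -1.45 (-1.53 to -1.37) in K562 and 0.01 (-0.05 to 0.06) in THP-1, where it was the only mitochondrial mRNA whose interval held 0. MT-ND1 (chrM:3307-4262), a membrane subunit near the quinone site, was at 3340 and 1304 CPM in K562 and 4173 and 3551 in THP-1, with log2 ratios of -1.36 and -0.23. Both genes were among those whose ratio differed most between the lines.

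MT-ND4 (chrM:10760-12137) and MT-ND4L (chrM:10470-10766), membrane subunits carried on 1 mRNA, had log2 ratios of -1.08 (-1.09 to -1.06) and -1.14 (-1.20 to -1.08) in K562 and of -0.28 and -0.18 in THP-1. The MT-ND4L to MT-ND4 count ratio was 0.0554 and 0.0530 in the K562 pair and 0.0539 and 0.0578 in the THP-1 pair. The intervals of this ratio overlapped in K562 (0.0541 to 0.0567 and 0.0512 to 0.0549) and not in THP-1 (0.0527 to 0.0552 and 0.0563 to 0.0593). MT-ND5 (chrM:12337-14148), another membrane subunit, was at 2568, 1674, 3807 and 3146 CPM, with log2 ratios of -0.62 (-0.64 to -0.60) in K562 and -0.27 (-0.28 to -0.25) in THP-1.

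MT-ND2 (chrM:4470-5511), also a complex I membrane subunit, departed most from the rest. It was at 3200 CPM in K562 DMSO and 2766 in K562 periplocin, a log2 ratio of -0.21 (-0.23 to -0.19), and at 3854 and 4502 CPM in THP-1, a log2 ratio of 0.23 (0.22 to 0.25). It was the mRNA with the highest ratio in both lines and the only one whose THP-1 interval lay above 0. It lies between MT-ND1 and MT-CO1 on the genome and on the same strand, and the ratios of both neighbours were lower in each line.

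MT-ND6 (chrM:14149-14673, minus strand) was at 163 and 116 CPM in K562 and at 331 and 246 CPM in THP-1. Its log2 ratios were -0.49 (-0.58 to -0.41) and -0.42 (-0.48 to -0.37), and it was the only 1 of the 13 whose difference between the lines, -0.07, had an interval holding 0 (-0.17 to 0.03). The counting is not stated to use strand, so MT-ND6 reads and antisense RNA from the other strand cannot be told apart.

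**Figure D2:**
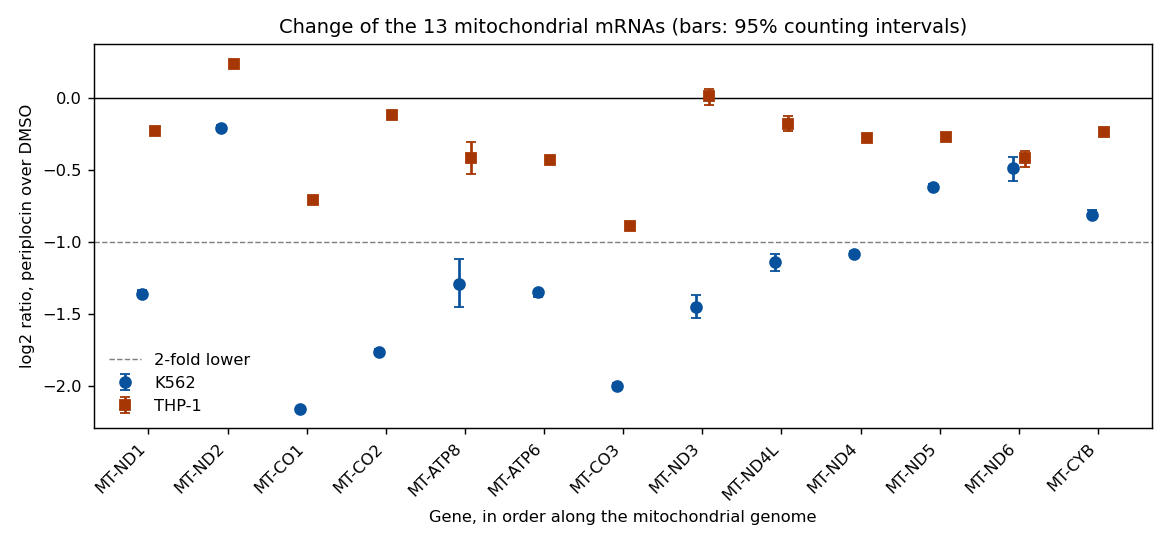
log2 ratio of periplocin over DMSO for each mitochondrial mRNA in K562 (circles) and THP-1 (squares), with 95% counting intervals that are smaller than the symbol for most genes, and a dashed line at 2-fold lower. K562 runs from -2.16 for MT-CO1 to -0.21 for MT-ND2 and THP-1 from -0.89 for MT-CO3 to 0.23 for MT-ND2.

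The lines were then compared gene by gene. The K562 minus THP-1 difference of log2 ratios had an interval below 0 for 12 of the 13 mRNAs and above 0 for 0, where 33.3% of all genes had one below and 37.6% one above 0. The median difference was -0.93 against 0.04 over all genes. It was -1 or lower for 5 of the 13, MT-CO2, MT-ND3, MT-CO1, MT-ND1 and MT-CO3, and 1 or higher for 0. Over all 10779 genes that passed in both lines, 11.2% had a difference of -1 or lower and 9.65% a difference of 1 or higher. The order of the mRNAs was only partly shared between the lines. Over the 13 genes, which are not independent replicates since they share libraries and primary transcripts, Pearson's r between the K562 and THP-1 log2 ratios was 0.600 and Spearman's rho 0.324. Between log2 ratio and gene length, r was 0.0996 in K562 and -0.109 in THP-1. Between log2 ratio and the log2 DMSO level per kilobase, r was -0.541 and rho -0.560 in K562, and -0.263 and -0.302 in THP-1, with the DMSO count entering both quantities.

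The makeup of the mitochondrial pool does not depend on scaling between libraries. Complex IV mRNAs made up 57.4% of the mitochondrial counts in K562 DMSO and 37.9% in K562 periplocin, and 50.7% and 43.0% in THP-1. Complex I mRNAs made up a larger share after treatment, with 32.5% and 49.3% of the counts in control and treated K562 and 37.3% and 44.5% in THP-1. Complex V stayed within 6.37% to 6.82% in the 4 libraries, and the share of MT-CYB was between 3.80% and 6.02%. These are shares of a fixed total, and the complex I sum itself was lower in both treated libraries (log2 ratios -0.85 and -0.15), by less than the complex IV sum (-2.05 and -0.64).

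**Figure D3:**
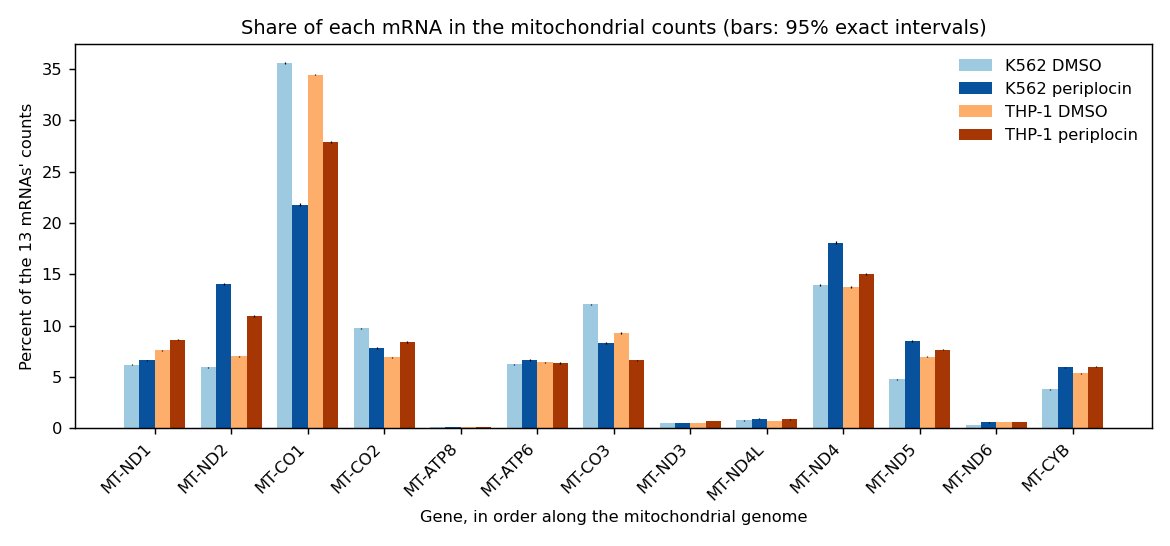
Share of each mRNA in the summed counts of the 13, in percent, for the 4 libraries, with exact 95% intervals that are barely visible at this depth. The MT-CO1 bars drop from 35.6% to 21.8% for K562 and from 34.5% to 27.9% for THP-1, and the MT-ND2 bars climb from 5.93% to 14% and from 7.05% to 11.0%.

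By gene, MT-CO1 was 35.6% of the mitochondrial counts in K562 DMSO and 21.8% in K562 periplocin, and 34.5% and 27.9% in THP-1. MT-ND2 was 5.93% and 14% in the K562 pair and 7.05% and 11.0% in the THP-1 pair. MT-ND4 was 14% and 18.1% and MT-ND5 4.76% and 8.49% in the K562 pair. The MT-CO1 to MT-ND2 count ratio within a library was 5.99 (5.94 to 6.05) in control and 1.55 (1.54 to 1.57) in treated K562 cells, and 4.89 (4.86 to 4.93) and 2.55 (2.53 to 2.57) in the THP-1 pair. The 2 control libraries were the high ones and the treated libraries the low ones. MT-CO3 to MT-ND2 behaved alike, at 2.04 and 0.590 in K562 and at 1.32 and 0.607 in THP-1, so MT-CO3 exceeded MT-ND2 in the controls only. Per kilobase of gene, MT-CO1 had the highest CPM of the 13 in all 4 libraries. On that scale MT-ND2 ranked 7th in both controls, 2nd in treated K562 and 4th in treated THP-1. MT-CO3 ranked 2nd in both controls, then 5th and 7th, and MT-ND6 and MT-ATP8 ranked 12th and 13th throughout.

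Nuclear copies of mitochondrial DNA could draw reads from these genes. Of 394 annotated mitochondrial pseudogenes aligned, 0 were in the count table. A block on chromosome 1 holds copies at 98.7% identity to MT-CO1, 98.4% to MT-ND2, 98.5% to MT-ATP6, 98.2% to MT-CO2, 97.6% to MT-ATP8 and, over 69.8% of its length, 98.2% to MT-CO3. It also holds a copy of 36.5% of MT-ND1 at 99.4% identity. Among copies that aligned over most of a gene, the best for MT-ND1 was 82.6% identical, and those for the genes outside the block were between 86.4% (MT-ND3) and 95.8% (MT-ND4) identical. The block thus includes both the mRNA with the lowest K562 ratio and the one with the highest. How reads that map to several places were treated is not given in the sources used here, so the values of these genes are uncertain to that extent.

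In the solvent controls the lines differed little in the mitochondrial sum. The level in THP-1 DMSO over K562 DMSO gave a log2 ratio of 0.02 (0.017 to 0.025) for the 13 mRNAs together. Single mRNAs differed more. MT-ND6 was 2.04-fold higher in THP-1 (log2 ratio 1.03, interval 0.96 to 1.09), and MT-ND5, MT-ATP8 and MT-CYB had log2 ratios of 0.57, 0.54 and 0.52. MT-CO2 and MT-CO3 were lower in THP-1, at -0.47 and -0.36. MT-ND6 was the only 1 of the 13 past 2-fold, in a comparison where 22.9% of 12849 genes were 2-fold higher and 21% 2-fold lower in THP-1. Its interval reached below 2-fold, and this single-gene value was not recomputed under other scalings. With library totals the sum of the 13 went from 0.02 to -0.10, so a call this near 2-fold depends on the scaling.

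The 24 nuclear factors did not share the low ratios of the mRNAs in K562. There, 0 of the 24 were at least 2-fold lower and 1, POLRMT, was at least 2-fold higher, with all-gene shares of 11.6% and 8.84%, and their median log2 ratio was 0.03. In THP-1, 0 of 24 were past 2-fold in either direction, with all-gene shares of 10.5% and 8.03%, and their median was -0.35. Counting intervals lay below 0 for 8 genes, above 0 for 7 and held 0 for 9 in K562, and lay below 0 for 18, above 0 for 1 and held 0 for 5 in THP-1. Over all genes, intervals lay below 0 for 39.3% and above 0 for 38.2% in K562, and below 0 for 39.3% and above 0 for 37.5% in THP-1. Over the 24 genes, Pearson's r between the lines was 0.424 and Spearman's rho 0.534.

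**Figure D4:**
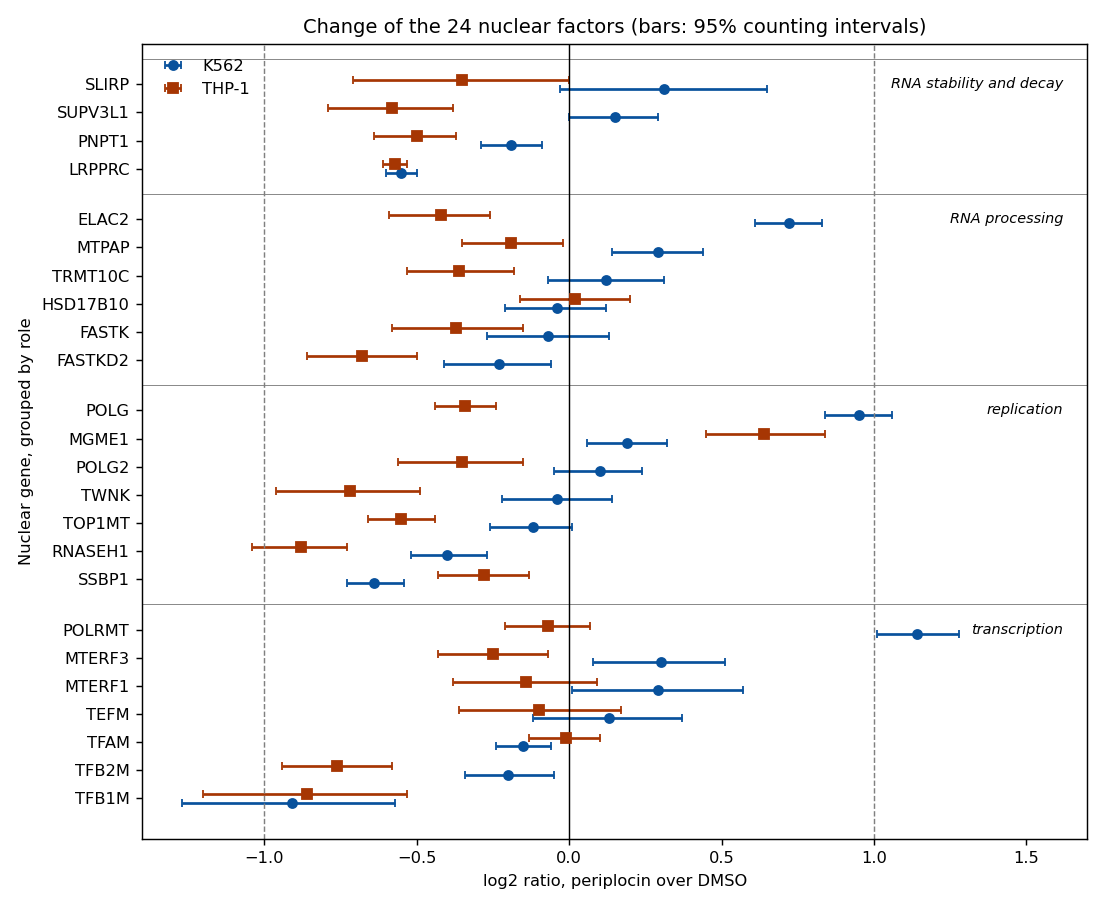
log2 ratio of periplocin over DMSO for the 24 nuclear factors, grouped by role, in K562 (circles) and THP-1 (squares) with 95% counting intervals and dashed lines at 2-fold. POLRMT at 1.14, POLG at 0.95 and ELAC2 at 0.72 stand to the right in K562, and in THP-1 all but MGME1 at 0.64 and HSD17B10 at 0.02 lie left of 0.

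Among the 7 transcription factors, POLRMT (19:617224-633604) had 655 counts in the K562 control and 1474 in the treated K562 library, and 954 and 775 in the THP-1 pair. Its level was 2.21-fold higher in treated K562 (log2 ratio 1.14, interval 1.01 to 1.28), and the THP-1 log2 ratio was -0.07 (-0.21 to 0.07). The mitochondrial RNA polymerase mRNA and the RNAs that the enzyme makes thus had opposite signs in K562. TFAM, which coats mitochondrial DNA and bends it at the promoters, had 2040 and 1868 counts in K562 (log2 ratio -0.15, interval -0.24 to -0.06) and 1392 and 1175 in THP-1 (-0.01, -0.13 to 0.10). TFB2M, which opens the promoter DNA, had 821 and 729 counts in K562 (-0.20, -0.34 to -0.05) and 744 and 375 in THP-1 (-0.76, -0.94 to -0.58). Of the mRNAs of the 3 initiation proteins, that of POLRMT was thus higher in treated K562 and that of TFB2M was lower mainly in treated THP-1. TFAM mRNA was near its control level in both lines.

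TFB1M, a relative of TFB2M that methylates the small ribosomal RNA, had 198 and 107 counts in the K562 pair and 237 and 111 in the THP-1 pair. Its log2 ratios were -0.91 (-1.27 to -0.57) and -0.86 (-1.20 to -0.53), the lowest of the nuclear factors in K562 and the second lowest in THP-1, and the difference between the lines was -0.05 (-0.52 to 0.42). TEFM, which keeps the polymerase elongating, had 268, 298, 272 and 217 counts in the order control and treated K562, then control and treated THP-1, and both of its intervals held 0. MTERF1 and MTERF3 belong to a family of proteins that bind mitochondrial nucleic acid. MTERF1 had a log2 ratio of 0.29 (0.01 to 0.57) in K562 and -0.14 (-0.38 to 0.09) in THP-1. MTERF3 had 0.30 (0.08 to 0.51) and -0.25 (-0.43 to -0.07), with intervals on opposite sides of 0.

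The promoters of POLRMT and TFB1M are shown because these genes had the highest and the lowest nuclear ratio in K562 and both carry the core letters bound by NRF1, a transcription factor known for nuclear genes of mitochondrial proteins. The sequences are from RefSeq on GRCh38.p14 and are 300 bases long around the start of the gene. Matches to GCGCATGC (NRF1 core) and CCGGAAGT (a core of ETS family factors), searched on both strands with overlapping matches joined, are in capitals:
POLRMT promoter (chr19:633488-633787, minus strand): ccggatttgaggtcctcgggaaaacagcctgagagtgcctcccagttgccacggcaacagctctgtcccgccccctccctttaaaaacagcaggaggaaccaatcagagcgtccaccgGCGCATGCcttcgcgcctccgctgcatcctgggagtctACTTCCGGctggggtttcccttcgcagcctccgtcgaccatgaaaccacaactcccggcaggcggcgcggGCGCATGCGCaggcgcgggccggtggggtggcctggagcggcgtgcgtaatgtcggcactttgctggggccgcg
TFB1M promoter (chr6:155314435-155314734, minus strand): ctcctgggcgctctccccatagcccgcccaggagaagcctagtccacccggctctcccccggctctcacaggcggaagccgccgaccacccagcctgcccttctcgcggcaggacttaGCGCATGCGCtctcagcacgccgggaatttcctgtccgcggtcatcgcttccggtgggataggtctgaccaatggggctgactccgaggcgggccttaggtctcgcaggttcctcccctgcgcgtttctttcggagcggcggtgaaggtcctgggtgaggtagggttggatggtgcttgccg
The POLRMT window held 2 NRF1 matches and 1 ETS match, and the TFB1M window held 1 NRF1 match. Promoters were matched for 21 of the 24 nuclear factors. The NRF1 letters were in 4 of the 21 (MTPAP, POLRMT, TFB1M and TFB2M) and in 3.27% of all 27305 promoters, and the ETS letters were in 6 of the 21 (ELAC2, MTERF1, POLRMT, SSBP1, TEFM and TRMT10C) and in 4.44%. The 4 genes with NRF1 letters had K562 log2 ratios of 0.29, 1.14, -0.91 and -0.20, in both directions. Their THP-1 log2 ratios, in the same order, were -0.19, -0.07, -0.86 and -0.76. All lay below 0, as did 22 of the 24 nuclear factors in that line. A link between the letters and the ratios was not tested. NRF1 itself had 359 and 628 counts in K562 (log2 ratio 0.78) and 473 and 369 in THP-1 (-0.13).

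Among the 7 replication factors, POLG (15:89305198-89334861), the catalytic subunit of the mitochondrial DNA polymerase, had 1018 and 2009 counts in the K562 pair and 2105 and 1415 in the THP-1 pair. Its log2 ratio was 0.95 (0.84 to 1.06) in K562, just under 2-fold, and -0.34 (-0.44 to -0.24) in THP-1. POLG2, its accessory subunit, had 758 and 825 counts in K562 (0.10, -0.05 to 0.24) and 494 and 330 in THP-1 (-0.35, -0.56 to -0.15). The POLG to POLG2 count ratio was 1.34 (1.22 to 1.48) and 2.44 (2.24 to 2.64) in K562 DMSO and periplocin, and 4.26 (3.86 to 4.71) and 4.29 (3.80 to 4.85) in THP-1. The mRNAs of the subunits thus moved apart in K562 and kept their count ratio in THP-1.

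TWNK, the replicative helicase, had 498 and 493 counts in K562 (log2 ratio -0.04) and 436 and 225 in THP-1 (-0.72, -0.96 to -0.49). SSBP1, which coats single-stranded mitochondrial DNA, had 2326 and 1522 counts in K562 (-0.64, -0.73 to -0.54) and 882 and 621 in THP-1 (-0.28, -0.43 to -0.13). RNASEH1, which removes RNA paired with DNA and also acts in the nucleus, had 1233 and 954 counts in K562 (-0.40) and 1116 and 516 in THP-1, where its log2 ratio of -0.88 (-1.04 to -0.73) was the lowest of the nuclear factors. All 3 lie below 0 in THP-1. TOP1MT, the mitochondrial topoisomerase, had log2 ratios of -0.12 (-0.26 to 0.01) and -0.55 (-0.66 to -0.44).

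MGME1, an exonuclease that trims DNA ends left by replication, was the exception in THP-1. It had 895 and 1042 counts in K562 (log2 ratio 0.19, interval 0.06 to 0.32) and 372 and 495 in THP-1 (0.64, 0.45 to 0.84), the only nuclear factor with an interval above 0 in both lines.

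Among the 6 RNA processing factors, ELAC2 (17:12992391-13018187), which cuts the 3′ ends of tRNAs in mitochondria and nucleus, had 1095 and 1835 counts in the K562 pair and 802 and 510 in the THP-1 pair. Its log2 ratio was 0.72 (0.61 to 0.83) in K562 and -0.42 (-0.59 to -0.26) in THP-1. TRMT10C and HSD17B10 are subunits of the RNase P that cuts the 5′ ends. TRMT10C had log2 ratios of 0.12 (-0.07 to 0.31) and -0.36 (-0.53 to -0.18), and HSD17B10 had -0.04 (-0.21 to 0.12) and 0.02 (-0.16 to 0.20). PRORP, the catalytic subunit of that RNase P and not among the 37 genes, had -0.56 in K562 and 0.28 in THP-1.

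MTPAP, the mitochondrial poly(A) polymerase, had 632 and 786 counts in K562 (log2 ratio 0.29, interval 0.14 to 0.44) and 715 and 535 in THP-1 (-0.19, -0.35 to -0.02). FASTK, which is needed for MT-ND6 mRNA, had -0.07 (-0.27 to 0.13) in K562 and -0.37 (-0.58 to -0.15) in THP-1. FASTKD2, a member of the same family that acts on the large ribosomal RNA, had -0.23 (-0.41 to -0.06) and -0.68 (-0.86 to -0.50).

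Among the 4 stability and decay factors, LRPPRC (2:43886508-43996005), which binds and protects the mRNAs, was the most abundant nuclear factor, at 472 CPM in control and 322 in treated K562 cells, and at 587 and 394 CPM in the THP-1 pair. Its log2 ratio was -0.55 (-0.60 to -0.50) in K562 and -0.57 (-0.61 to -0.53) in THP-1, a difference of 0.02 (-0.05 to 0.09). LRPPRC mRNA therefore had the same ratio in both lines within counting error, and the summed mitochondrial mRNAs did not. A link between LRPPRC and the mitochondrial mRNA levels was not tested, and these libraries do not measure its protein. SLIRP, its partner, had only 134 and 169 counts in K562 (0.31, -0.03 to 0.65) and 168 and 112 in THP-1 (-0.35). PNPT1 and SUPV3L1 form the complex that degrades mitochondrial RNA. PNPT1 had -0.19 (-0.29 to -0.09) in K562 and -0.50 (-0.64 to -0.37) in THP-1, and SUPV3L1 had 0.15 and -0.58 (-0.79 to -0.38).

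By role, the median log2 ratios in K562 and THP-1 were 0.13 and -0.14 for transcription, -0.04 and -0.35 for replication, 0.04 and -0.36 for RNA processing and -0.02 and -0.54 for stability and decay. The K562 minus THP-1 difference was 1 or higher for 3 of the 24, POLG at 1.3 (1.15 to 1.44), POLRMT at 1.21 (1.02 to 1.40) and ELAC2 at 1.14 (0.95 to 1.33), with 9.65% of all genes that far. It was -1 or lower for 0 of the 24, with 11.2% of all genes that far. The median difference was 0.45, of the opposite sign to the -0.93 of the mRNAs. Intervals of a gene lay on opposite sides of 0 in the lines for 5 of the 37 genes and for 20.2% of all genes. In the DMSO libraries, SSBP1 and MGME1 were the 2 of 24 that were at least 2-fold lower in THP-1, with log2 ratios of -1.61 (-1.72 to -1.5) and -1.48 (-1.66 to -1.30), in a comparison where 21% of genes were 2-fold lower.

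Exons of several nuclear factors overlap a gene on the opposite strand, and without a stated strand setting their reads cannot be told apart. Pairs in the annotation with a gene in the count table were TFB1M with TIAM2, POLG with FANCI, TWNK with MRPL43 and MGME1 with SNX5. FASTKD2 with MDH1B, SLIRP with SNW1 and TEFM with ADAP2 were also such pairs. Pairs with a gene absent from it were TEFM with AC130324.3, RNASEH1 with its antisense gene RNASEH1-AS1, SSBP1 with WEE2-AS1 and MTPAP with AL353796.2. On the same strand, SSBP1 overlaps TAS2R6P, RNASEH1 overlaps AC108488.2 and SLIRP overlaps C14orf178. A strand setting would not separate these, and the partner genes are absent from the count table.

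Other gene lists of the same pathways give the setting. Of 46 further factors of mitochondrial DNA and RNA metabolism, 3 were 2-fold lower and 1 2-fold higher in K562, and 6 and 0 in THP-1, with medians of -0.20 and -0.40. The rRNA methyltransferase gene MRM1 was 2-fold lower in both lines, with 180 and 89 counts in the K562 pair and 89 and 28 in the THP-1 pair. Of 78 nuclear-encoded subunits of the respiratory complexes and ATP synthase, 0 were 2-fold lower and 3 were 2-fold higher in K562, and 0 were past 2-fold in THP-1. Their median log2 ratio was 0.31 in K562 and 0.05 in THP-1, and their summed counts gave 0.32 (0.313 to 0.336) and 0.03 (0.013 to 0.037). In K562 the sum of these nuclear-encoded subunits and that of the mitochondrially encoded subunits thus had opposite signs. The nuclear sum includes SDHA, SDHB, SDHC and SDHD of complex II, which has no mitochondrially encoded subunit.

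Of 82 mitochondrial ribosomal protein genes, 0 were 2-fold lower and 3 2-fold higher in K562, and 7 were 2-fold lower and 1 2-fold higher in THP-1, with medians of 0.04 and -0.26. MRPS6, of the small subunit, was 2-fold higher in both lines, with 716 and 1505 counts in the K562 pair and 450 and 1217 in the THP-1 pair. Of 12 regulators of these nuclear genes, 11 passed the minimum, with medians of 0.14 and 0.40. Those past 2-fold were TFEB, a lysosome and mitochondria regulator, at 1.12 in K562, and MYC at -2.29 in THP-1, where its counts were 5889 and 1024. In the other line both had the same direction under 2-fold, TFEB at 0.88 in THP-1 and MYC at -0.91 in K562. The TFEB counts in K562 were only 82 and 182. The all-gene shares given above apply to these counts as well, and nothing particular to a list is drawn from them.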

How the data were processed

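PolyA RNA was sequenced from 2 cell lines, K562 and THP-1, each with its solvent control and a periplocin treatment, 1 library per condition (4 in all). The authors deposited a gene table of expected counts, mostly but not wholly whole numbers and not normalized. The submitters' processing notes name HISAT2, StringTie 1.3.1 and hg38 without their roles, and the program that made the counts, its annotation, its strand setting and its treatment of reads mapping to several places are not given in the sources used here. The labels name an Illumina NovaSeq instrument and the methods another platform. Sources state a single biological replicate, so no test was made and no p-value is given.

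Expected counts were rounded to whole numbers. TMM factors came from edgeR 4.0.16 in R 4.3.3, over the pair of a line for ratios and over the 4 libraries for CPM and for the DMSO comparison. A log2 ratio used a prior count of 0.125. Its 95% interval was an exact binomial (Clopper-Pearson) interval, and a normal one for differences between lines. Intervals cover counting error only, and PCR reads without molecular identifiers are not independent molecules. Past 2-fold means a log2 ratio of at least 1 or at most -1 in genes whose mean over the compared libraries was 1 CPM or more. Symbols were matched for 20310 of 20348 gene IDs. Lengths and positions were from GENCODE 29, and promoters from RefSeq. Sums, shares and motif searches were made in Python 3.11.15 (scipy 1.17.1, numpy 2.4.6, pandas 2.3.3), and figures in matplotlib 3.10.9. The scripts were tested on simulated data.

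The 37 members and all lists were chosen with earlier results of these data known. All members are named. Of the further lists, the genes past 2-fold in the same direction in both lines are named, and NRF1, TFEB, MYC, PRORP and the genes of the label check were named after their values were seen. Alternatives were DESeq2 1.42.0 size factors, library totals, TMM without the mitochondrial genes, other fold thresholds, filters and prior counts, counts per kilobase, unrounded counts, and sums without overlapping genes.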

Additional observations from a re-analysis of the deposited data

Results flagged for a closer look

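In 5 of the 37 genes the counting intervals of the treated to control ratio lay on opposite sides of 0 in K562 and THP-1. The same held for 20.2% of all 10779 genes that passed in both lines, so nothing particular to the 37 is drawn from the count. With 1 library per condition none of the 5 was tested, and the values are K562 minus THP-1 differences of log2 ratios. MT-ND2, a complex I subunit, had a difference of -0.44, from -0.21 in K562 and 0.23 in THP-1. POLG, the mitochondrial DNA polymerase, had 1.3, from 0.95 and -0.34. ELAC2, the tRNA 3′ end nuclease, had 1.14, from 0.72 and -0.42. MTERF3, of the mitochondrial termination factor family, had 0.55, from 0.30 and -0.25. MTPAP, the mitochondrial poly(A) polymerase, had 0.48, from 0.29 and -0.19. MT-ND2 was the only one of the 13 mitochondrial mRNAs with intervals on opposite sides of 0. MT-ND3 also had ratios of opposite sign, -1.45 in K562 and 0.01 in THP-1, but its THP-1 interval held 0.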

How the results depend on the processing

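With 1 library per condition there was no replicate error, and the precision given by depth is counting error alone. No paired analysis was possible because each condition had 1 library and the labels give no replicate numbers, and leaving out a library leaves no comparison. The log2 ratio of each of the 37 genes in each line was recomputed under other scalings, another prior count and without rounding, which gave 370 recomputed values. Of these, 1 changed sign, that of MT-ND3 in THP-1 (0.01, and just under 0 with library totals), and the largest shift was 0.03.

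The log2 ratio of the summed mitochondrial mRNAs in K562, -1.45, was -1.43 with DESeq2 size factors, -1.44 with library totals and -1.54 without MT-ATP8, MT-ATP6, MT-ND4L and MT-ND4, which overlap in pairs. In THP-1, -0.41 became -0.37 per kilobase, -0.42 with library totals and -0.43 without those genes. The difference between the lines, -1.05, became -1.03, -1.07, -1.02 and -1.11 with DESeq2 size factors, per kilobase, with library totals and without those genes. With MT-CO3, which shares 1 base with MT-ATP6, left out as well, an alternative chosen after seeing the data, the 3 values were -1.47, -0.38 and -1.10. The THP-1 over K562 value in DMSO, 0.02, became -0.10 with library totals, so the sign of this small difference depended on the scaling.

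At 4-fold, 1 mitochondrial mRNA was lower in K562, in place of 9, and 0 nuclear factors were higher, in place of 1. At 1.5-fold, 2 mitochondrial mRNAs were lower in THP-1, and 3 nuclear factors were higher and 2 lower in K562, and 1 higher and 5 lower in THP-1. The all-gene shares at 4-fold were 2.77% lower and 1.98% higher in K562. Those at 1.5-fold were 22% lower and 19% higher in K562 and 21.2% and 17.2% in THP-1.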
